A study of Mus musculus with 4 samples.

Results

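The receptor chains through which T cells read interleukins and interferons were followed in mouse T helper 17 (Th17) cultures. The set was chosen by gene name and family, with no cutoff on a measured value, and held 37 genes: interleukin, interferon and gp130-family receptor chains, with the IL-1 receptor antagonist gene Il1rn. Of these, 32 had a row among the 19555 rows of the expression tables. The other 5 (Il1rl1, Il9r, Il17rb, Lifr and Osmr) had no row in the tables used here and were not analysed. C57BL/6 spleens and lymph nodes gave naive CD4+ T cells, which were activated and cultured for 3 days with IL-6 and TGF-β1, the cytokine pair that induces Th17 cells. They were wild type (WT) or labelled Smad4 KO, a knockout of the common SMAD partner in TGF-β signalling, and were kept at 37 °C or at the fever-range 39.5 °C. Each of the 4 combinations had 1 library, so a ratio between a pair of libraries has no replicate check. The sources used here do not state how Smad4 was deleted, in which cells, or how many mice were used.

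Cytokine receptors of this kind are built from chains that are shared between receptors and chains that belong to 1 or a few of them. A private chain (the IL-23 receptor, the IL-12 receptor β2 chain, the IL-10 receptor α chain) gives ligand specificity, and a shared chain (gp130, the common γ chain, IL-12 receptor β1) completes the signalling complex. Most of them signal through Janus kinases (JAKs) and STAT proteins; IL-1 and IL-18 receptors signal through MyD88, and IL-17 receptors through Act1. In Th17 cells IL-6 starts the programme through STAT3, IL-1 and IL-23 sustain it, and IL-12 and interferon-γ act toward the Th1 fate.

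Expression was given as RPKM (a read count divided by exon length and library size), so levels can be compared between genes. The whole reads behind these values summed to between 18048479 and 18474773 per library. Smad4 itself was at 14.05 RPKM in WT at 37 °C, 14.2 RPKM in WT at 39.5 °C, and 20.7 and 21.3 RPKM in the other pair, higher where a knockout is labelled. An RPKM over all exons cannot show that some exons are deleted, so these libraries are called KO-labelled throughout and each genotype difference is one between labels. T cell markers were present in every library (10 of 10 listed genes, summed level 1548 to 2353 RPKM). The 8 Th17 markers summed to 912.7 and 2343 RPKM in WT and to 465 and 671 RPKM in the KO-labelled pair, at 37 and 39.5 °C. The 5 regulatory T cell markers did not go one way: with the KO label the defining factor Foxp3 was lower (7.80 and 5.10 RPKM in WT, 1.98 and 0.477 RPKM with the label), Lrrc32 (1.99 and 0.674, 61.6 and 15.1 RPKM) and Tnfrsf18 were higher, and the sum (232.9 and 226, 449.7 and 290.4 RPKM) consists mostly of Ctla4 and Tnfrsf18. B cell markers (2 of 6 with a row) summed to at most 1.41 RPKM, CD8 T and NK markers (3 of 6) to at most 5.69 RPKM, and myeloid (5 of 9) and stromal or endothelial markers (4 of 6), given below, to at most 10.1 RPKM. In bulk RNA, fewer cells of a type and less RNA per cell cannot be told apart.

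The chains of the IL-2 receptor were by far the most abundant members. Il2ra, which encodes the α chain that raises affinity for IL-2, stood at 305.5 RPKM in WT at 37 °C, 299 RPKM in WT at 39.5 °C, 394 RPKM with the KO label at 37 °C and 259 RPKM with it at 39.5 °C. Il2rb, the signalling β chain shared with the IL-15 receptor, was next with 217, 226.5, 299 and 257 RPKM in the same library order. Il2rg, the common γ chain of the IL-2, IL-4, IL-7, IL-9, IL-15 and IL-21 receptors, followed with 197, 174, 246 and 223.5 RPKM; 30.5% of its exon bases also belong to the predicted gene Gm20489. This order held in each library, although with the KO label at 39.5 °C Il2ra and Il2rb did not differ beyond counting error (ratio 1.01, exact 95% interval 0.990 to 1.03). The interleukin-4 receptor gene Il4ra came next in each library, between 84.0 and 127 RPKM. At the other end, 8 members had a mean under 1 RPKM over the 4 libraries: Il1rap, Il18r1, Il18rap, Il1rn, Il13ra1, Csf2rb, Il11ra1 and Il17rc. They were between 0 and 1.29 RPKM and were left out of the tests across genes, which took 24 members and 13715 rows in all. Il10ra and Il17re were under 1 RPKM in both WT libraries and reached the minimum through the KO-labelled ones.

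**Figure D1:**
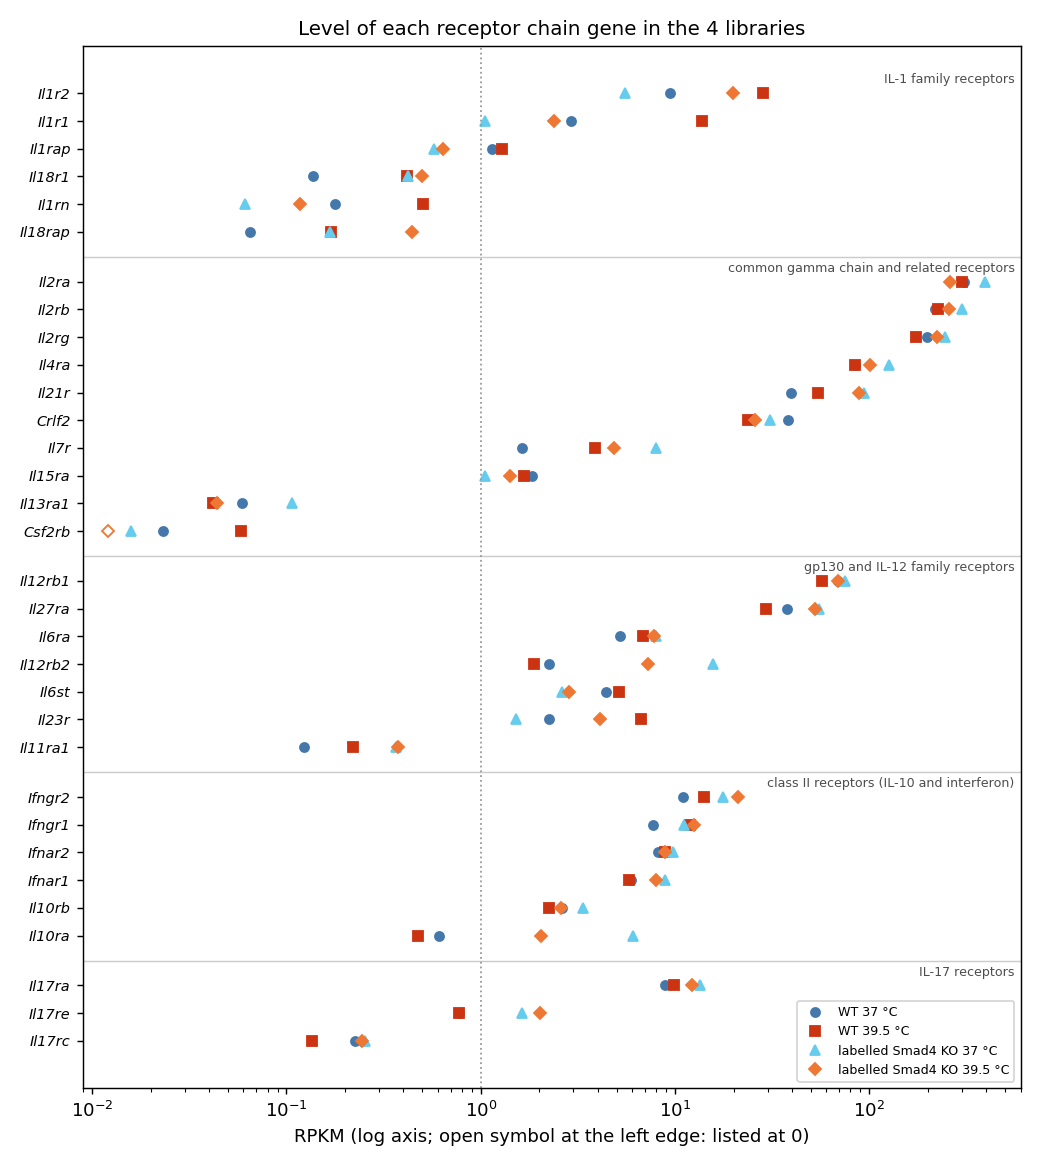
Level of each of the 32 measured members in RPKM (log axis), grouped by receptor family, with 1 symbol for each library; the dotted line marks the minimum mean of 1 RPKM. The 3 IL-2 receptor genes lie above 170 RPKM in every library, and the circles and squares (WT) of Il10ra and Il12rb2 lie left of the triangles and diamonds (KO label).

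At 39.5 °C in WT, 3 of the tested members were at least 2-fold higher on the log2(RPKM + 1) scale: the IL-1 receptor genes Il1r1 and Il1r2 and the IL-23 receptor gene Il23r. Others, Il7r, Ifngr1 and Il21r among them, were higher by less on that scale and are given with their families. Il1r1, which encodes the signalling IL-1 receptor, was at 2.90 RPKM (336 reads) at 37 °C and 13.8 RPKM (1690 reads) at 39.5 °C in WT. In the libraries labelled Smad4 KO it was at 1.05 RPKM (118 reads) and 2.38 RPKM (279 reads). The ratio of 39.5 to 37 °C was thus 4.75 (exact 95% interval 4.22 to 5.35) in WT and 2.27 (1.82 to 2.83) with the KO label; these intervals and all that follow cover counting error only. The warm library was the higher of its pair in both genotypes, and the WT library at 39.5 °C stood above the other 3.

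Il1r2, which encodes a decoy receptor that binds IL-1 without signalling, was at 9.38 and 28.45 RPKM in WT and at 5.50 and 19.8 RPKM with the KO label. Its ratios of 39.5 to 37 °C were 3.03 (2.68 to 3.44) and 3.60 (3.06 to 4.26), and both warm libraries lay above both libraries at 37 °C. Il23r, the private chain of the IL-23 receptor, showed the same order of libraries, with 2.25 and 6.66 RPKM in WT (102 and 320 reads) and 1.53 and 4.13 RPKM with the KO label (67 and 189 reads). Its ratios were 2.96 (2.36 to 3.74) and 2.70 (2.04 to 3.63).

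The 2-fold calls use log2(RPKM + 1), where low genes show less than their full change. In WT 3 of 24 members were at least 2-fold higher at 39.5 °C, against 1.46% of all rows tested, and 0 at least 2-fold lower, against 0.525%. With a pseudocount of 0.1 in place of 1, 4 members were at least 2-fold higher, Il7r (log2 1.21 in place of 0.90) being the one added. Over all rows tested the number at least 2-fold higher grew as well, from 200 to 391. The Th17 marker sum was higher at 39.5 °C as well (values above). The 5 myeloid markers with a row summed to 2.77 and 6.20 RPKM in WT and to 4.26 and 8.51 RPKM with the KO label, at 37 and 39.5 °C; of these Cd68 gave 1.70, 4.57, 3.61 and 8.17 RPKM, while Lyz2, Csf1r, Cd14 and Itgax were at or below 1.22 RPKM, with Cd14 and Itgax at 0 in WT at 37 °C. The part of these markers in the differences was not tested. With the KO label, Il1r2 and Il23r were at least 2-fold higher (2 of 24, against 0.751% of rows), and Il12rb2 and Il10ra at least 2-fold lower (2 of 24, against 0.911%). Il10ra reached the minimum only through the KO-labelled libraries, so it is no support in that count. The median log2 ratio of the members was 0.03 in WT and −0.12 with the KO label, beside −0.02 and −0.01 over all rows.

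**Figure D2:**
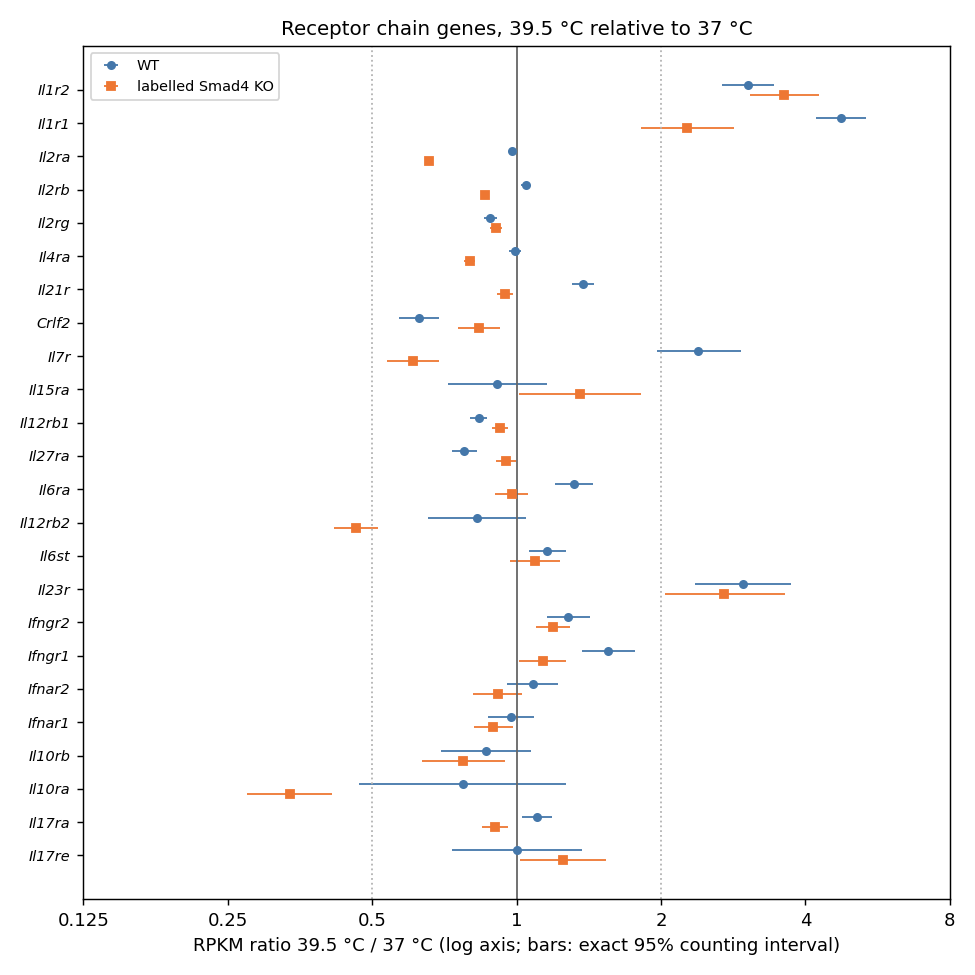
RPKM ratio of 39.5 to 37 °C (log axis) for the 24 members tested, in WT (circles) and in the KO-labelled libraries (squares), with exact 95% counting intervals; dotted lines mark a ratio of 0.5 and 2. Il1r2, Il1r1 and Il23r lie right of 2 in both pairs, Il7r lies on opposite sides of 1, Il12rb2 and Il10ra lie left of 0.5 with the KO label, and the other members lie between 0.5 and 2.

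A change shared by both genotypes was tested with limma (additive model over the 4 libraries, Benjamini-Hochberg adjustment over all 13715 rows), in which the genotype dependence serves as the error with 1 residual degree of freedom. For temperature 0 of the 24 members passed in either direction; over all rows 0.0146% rose and 0.00729% fell. Il1r2 came closest in that limma fit (log2 1.59 ± 0.13 SE, adjusted p = 0.054), followed by Il23r (1.13 ± 0.14, adjusted p = 0.0728), while Il1r1, whose ratio differed more between genotypes, had 1.32 ± 0.29 (adjusted p = 0.158). At an unadjusted p under 0.05, Il1r1, Il1r2 and Il23r were on the high side (3 of 24, against 7.17% of rows) and Crlf2 and Il12rb2 on the low side (2 of 24, against 6.79%). With a pseudocount of 0.1, 1 member (Il1r2, adjusted p = 0.0302) rose, and with a minimum mean of 5 RPKM, which Il23r does not reach, Il1r1 (0.0316) and Il1r2 (0.000688) rose. With limma-voom on the recovered reads, 3 members rose and 0 fell: Il1r2 (adjusted p = 0.00544), Il23r (0.0153) and Il1r1 (0.016). The calls over all rows grew as well. In the main fit 2 rows rose, against 19 of 13715 with the pseudocount of 0.1, 178 of 8947 with the minimum of 5 RPKM and 225 of 13715 with limma-voom.

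Il1r2 and Il1r1 are neighbours on chromosome 1 (GRCm38, 40074079 to 40125231 and 40225080 to 40317257, both on the plus strand). They head a cluster that continues with Il1rl2, Il1rl1, Il18r1 and Il18rap, with no other coding gene between them. The next gene, Il1rl2, which encodes an IL-36 receptor and is not a member, starts 7.4 kb beyond Il1r1. It had another order of libraries: 0.3465 and 0.281 RPKM in WT (43 and 37 reads) and 1.615 and 0.710 RPKM with the KO label (194 and 89 reads). The chains of the IL-18 receptor at the far end were low throughout. Il18r1 was at 0.137, 0.419, 0.424 and 0.496 RPKM (12, 39, 36 and 44 reads), and Il18rap at 0.0650, 0.169, 0.168 and 0.442 RPKM (8, 22, 20 and 55 reads). Il18rap was higher at 39.5 °C beyond counting error in both genotypes (ratios 2.59, 1.11 to 6.74, and 2.635, 1.55 to 4.64), and Il18r1 in WT (3.07, 1.57 to 6.43) but not with the KO label (1.17, 0.737 to 1.87).

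**Figure D3:**
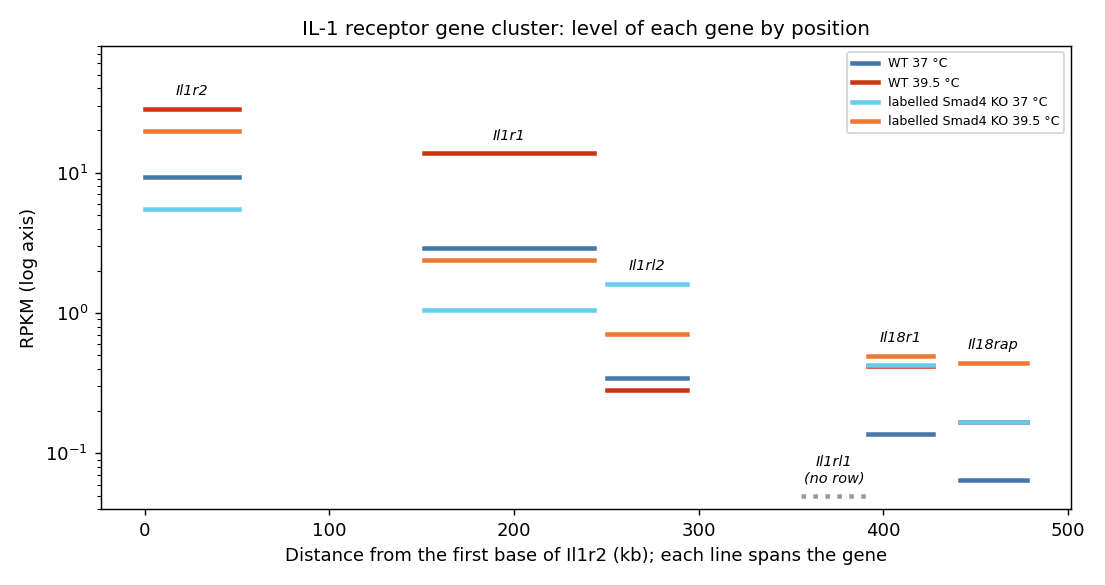
Level in RPKM (log axis) of each gene of the IL-1 receptor cluster against its position, as the distance in kb from the first base of Il1r2; each line spans a gene and its colour gives the library. Il1r2 and Il1r1 are highest in WT at 39.5 °C, Il1rl2 is highest with the KO label at 37 °C, and Il1rl1 has no row.

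The decoy gene exceeded the signalling gene in every library. The ratio of Il1r2 to Il1r1, in RPKM, was 3.24 (2.77 to 3.78) in WT at 37 °C and 2.07 (1.91 to 2.23) in WT at 39.5 °C. With the KO label it was 5.23 (4.13 to 6.64) at 37 °C and 8.32 (7.23 to 9.59) at 39.5 °C. At 39.5 °C the ratio was thus lower than at 37 °C in WT and higher with the KO label. Il1rap, the accessory chain that both receptors recruit, was at 1.14, 1.29, 0.574 and 0.641 RPKM. Its ratio of 39.5 to 37 °C was 1.13 (0.949 to 1.35) in WT and 1.12 (0.864 to 1.45) with the KO label, and its ratio to WT was 0.505 (0.401 to 0.634) at 37 °C and 0.498 (0.403 to 0.614) at 39.5 °C. Il1rn, which encodes the soluble receptor antagonist, had 18, 54, 6 and 12 reads; it was higher at 39.5 °C in WT (ratio 2.83, 1.63 to 5.13) and its interval with the KO label (0.666 to 6.22) spanned 1.

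In the main limma fit more members passed for genotype than for temperature, across several receptor families, and so did more of all rows. By the 2-fold rule the numbers were similar. Members higher and lower were 3 and 0 for temperature in WT and 2 and 2 with the KO label. For genotype they were 4 and 0 at 37 °C and 2 and 1 at 39.5 °C. In the limma fit, 8 of 24 members passed for genotype at an adjusted p under 0.05: Il12rb2, Il10ra, Il21r, Il27ra and Ifngr2 rose with the KO label (5 of 24, against 8.57% of all rows), and Il1r1, Il1r2 and Il6st fell (3 of 24, against 4.70%). Of the 24, 18 lay above 0 and 6 below, beside 48.7% of all rows above 0, with a median log2 of 0.33 beside −0.01 over all rows. The 18 include Il10ra and Il17re, which reached the minimum only through the KO-labelled libraries. By size at 37 °C, Il7r, Il21r, Il12rb2 and Il10ra were at least 2-fold higher (4 of 24, against 4.70% of rows) and 0 of 24 at least 2-fold lower (against 1.14%). As a plain RPKM ratio to WT, Il1r1 was at 0.363 (0.2915 to 0.449) at 37 °C and 0.173 (0.152 to 0.197) at 39.5 °C. With a pseudocount of 0.1 it was at least 2-fold lower at 37 °C (log2 −1.38), where 320 rows in place of 156 were. At 39.5 °C, Il12rb2 and Il10ra were at least 2-fold higher (2 of 24, against 2.30%) and Il1r1 at least 2-fold lower (1 of 24, against 1.05%). Il10ra was admitted to the fit only by the libraries in which it is high, so its call is no support; without it, 4 members rose, 3 were 2-fold higher at 37 °C and 1 at 39.5 °C. With the KO label the T cell marker sum was higher (1766 and 1548 RPKM in WT, 2353 and 2129 RPKM with the label). That sum was led by Cd5 (730.7 and 487.7 RPKM in WT, 901 and 873.5 RPKM with the label). Its members did not go one way: Cd247 (21.4 and 58.4 RPKM in WT, 9.06 and 15.6 RPKM with the label) and Cd28 were lower. In limma 2 of these 10 markers rose for genotype and 1 fell. The Th17 marker sum and Foxp3 were lower with the label. The 4 stromal or endothelial markers with a row summed to 3.61 and 2.41 RPKM in WT and to 10.1 and 5.08 RPKM with the label. Of these 4, Pecam1 gave 2.74, 1.49, 9.48 and 4.82 RPKM, while Col1a1, Col1a2 and Col3a1 were at or below 0.477 RPKM, with Col1a2 and Col3a1 at 0 with the KO label at 39.5 °C. The part of these markers in the differences was not tested. On simulated data this fit also called unchanged genes at above its nominal rate, which bears on each call here. When rows under 1 RPKM were kept in the limma fit, 0 members passed, and the 8 had adjusted p from 0.0562 to 0.101. With limma-voom 7 members rose, Il10ra among them, and 4 fell. Over all 13715 rows, 1626 rose and 1288 fell with limma-voom, against 1176 and 644 in the main fit.

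Il12rb2, the chain that makes the IL-12 receptor and marks Th1-competent cells, showed the largest genotype difference in the fit. It was at 2.26 and 1.87 RPKM in WT (156 and 137 reads) and at 15.6 and 7.24 RPKM with the KO label (1047 and 506 reads), with no overlap between the genotypes. The KO-labelled to WT ratio was 6.93 (5.85 to 8.26) at 37 °C and 3.87 (3.20 to 4.71) at 39.5 °C, and limma gave a shared log2 difference of 1.94 ± 0.22 SE (adjusted p = 0.0148). Of its exon bases, 40.0% also belong to exons of Serbp1 on the opposite strand, and the sources used here do not state whether the counting used strand. Serbp1 was lower with the KO label (48.5 and 38.65 RPKM in WT, 33.4 and 30.3 RPKM with the label), the direction opposite to that of Il12rb2. The part of reads from the shared bases in either value was not tested. At 39.5 °C Il12rb2 was lower than at 37 °C with the KO label (ratio 0.463, 0.416 to 0.515), while in WT its interval spanned 1 (0.829, 0.654 to 1.05).

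Il23r lies next to Il12rb2 on chromosome 6 (67422932 to 67491855 and 67291318 to 67376188, both on the minus strand), 46.7 kb apart with no coding gene between. The genes differed in opposite directions. Il23r stood at 0.678 (0.491 to 0.932) of its WT level at 37 °C and 0.619 (0.515 to 0.744) at 39.5 °C in the KO-labelled libraries, and did not pass for genotype in limma (log2 −0.47 ± 0.14 SE, adjusted p = 0.081), though it did with limma-voom (log2 −0.64, adjusted p = 0.044). The ratio of Il12rb2 to Il23r within a library therefore ran from 0.281 (0.228 to 0.344) in WT at 39.5 °C to 10.25 (8.001 to 13.3) with the KO label at 37 °C. Between these, it was 1.003 (0.777 to 1.30) in WT at 37 °C and 1.76 (1.48 to 2.09) with the KO label at 39.5 °C. Both private chains pair with the product of Il12rb1, which was at 68.6, 57.2, 75.2 and 69.35 RPKM, at least 4.81 times the level of Il12rb2 and at least 8.59 times that of Il23r in each library.

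**Figure D4:**
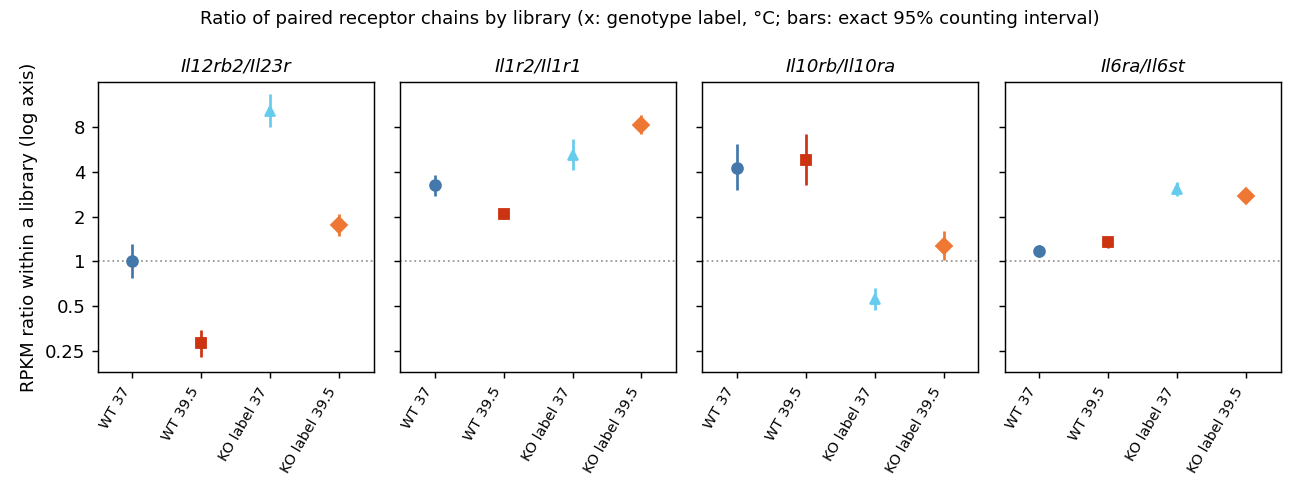
RPKM ratio (log axis) of a pair of receptor chains within each library, with exact 95% counting intervals, for Il12rb2 to Il23r, Il1r2 to Il1r1, Il10rb to Il10ra and Il6ra to Il6st. The Il12rb2 to Il23r ratio spans 0.281 to 10.25, and the Il10rb to Il10ra ratio is above 4 in both WT libraries and at or below 1.28 with the KO label.

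The promoters of Il1r2, Il1r1, Il23r and Il12rb2, the neighbouring genes that carry the temperature and genotype differences above, were taken from RefSeq (GRCm38.p6): 250 bases before to 50 after an annotated start, 5′ to 3′ on the gene's strand. Capitals mark matches on either strand to TTCNNNGAA (the STAT dimer site), GAANNTTC (a heat shock element core, bound by HSF1) and AGGTCA (the core of ROR factor sites, RORγt among them). TGANTCA, the AP-1 site, was searched too and had no match in these windows. No match overlaps another in these windows. Il1r1 has 2 annotated starts, and the Il1r2 window lies inside the gene as GENCODE draws it.
Il1r2, chr1:40085843-40086142, plus strand: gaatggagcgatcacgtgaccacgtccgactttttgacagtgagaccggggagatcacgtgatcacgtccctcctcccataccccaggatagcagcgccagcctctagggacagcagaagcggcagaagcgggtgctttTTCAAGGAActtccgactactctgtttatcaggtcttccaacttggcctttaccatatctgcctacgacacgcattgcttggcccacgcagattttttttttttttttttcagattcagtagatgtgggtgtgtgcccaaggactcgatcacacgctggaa
Il1r1 first start, chr1:40224830-40225129, plus strand: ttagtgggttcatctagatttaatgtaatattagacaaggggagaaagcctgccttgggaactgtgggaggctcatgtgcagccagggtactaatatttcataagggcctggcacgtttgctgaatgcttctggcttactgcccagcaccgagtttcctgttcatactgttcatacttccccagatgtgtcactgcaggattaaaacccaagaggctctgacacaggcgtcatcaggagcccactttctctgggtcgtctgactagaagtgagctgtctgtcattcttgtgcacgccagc
Il1r1 second start, chr1:40266336-40266635, plus strand: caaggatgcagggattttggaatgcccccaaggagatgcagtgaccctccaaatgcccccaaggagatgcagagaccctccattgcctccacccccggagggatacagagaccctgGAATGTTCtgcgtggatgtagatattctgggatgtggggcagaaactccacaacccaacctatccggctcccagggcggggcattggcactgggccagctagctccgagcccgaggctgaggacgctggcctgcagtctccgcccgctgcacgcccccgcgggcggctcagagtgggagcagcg
Il23r, chr6:67491806-67492105, minus strand: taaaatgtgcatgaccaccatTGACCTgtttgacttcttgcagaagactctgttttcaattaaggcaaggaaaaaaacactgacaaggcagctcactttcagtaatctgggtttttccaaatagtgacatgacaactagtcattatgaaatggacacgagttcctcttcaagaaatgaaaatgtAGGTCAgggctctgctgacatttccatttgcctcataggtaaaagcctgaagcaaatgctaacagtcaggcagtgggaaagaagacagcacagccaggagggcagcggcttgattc
Il12rb2, chr6:67376139-67376438, minus strand: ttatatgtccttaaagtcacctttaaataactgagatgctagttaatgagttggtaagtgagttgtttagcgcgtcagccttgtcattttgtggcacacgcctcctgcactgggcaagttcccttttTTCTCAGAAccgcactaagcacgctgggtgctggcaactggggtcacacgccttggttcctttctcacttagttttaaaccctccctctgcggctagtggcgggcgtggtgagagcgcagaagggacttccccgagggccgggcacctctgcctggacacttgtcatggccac

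Il1r2 and Il12rb2 each held 1 STAT match, the second Il1r1 start 1 heat shock element match, and Il23r 2 ROR matches; the first Il1r1 start held none of the 3 motifs. Promoter windows were at hand for 25 of the 32 measured members, 32 windows in all. The STAT letters were in 6 of them (18.8%) beside 8.3% of all 32851 windows, the heat shock element letters in 2 (6.2%) beside 7.9%, the ROR letters in 3 (9.4%) beside 16.3%, and the AP-1 letters in 2 (6.2%) beside 7.8%. The letters CAGAC, the short box bound by SMAD proteins, which are too common to be marked, were in 11 windows (34.4%) beside 49.6%. A match is a stretch of letters and does not show binding.

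Il10ra, the ligand-binding chain of the IL-10 receptor, had the largest genotype ratio of the members tested. It was at 0.612 and 0.474 RPKM in WT (39 and 32 reads) and at 6.045 and 2.03 RPKM with the KO label (373 and 131 reads), and the genotypes did not overlap. The ratio to WT was 9.88 (7.09 to 14.1) at 37 °C and 4.29 (2.90 to 6.53) at 39.5 °C. Since Il10ra reached the minimum level only through the KO-labelled libraries, these values are a description and its limma result is not used. Like Il12rb2 it was lower at 39.5 °C with the KO label (ratio 0.337, 0.274 to 0.412), and in WT its interval spanned 1 (0.469 to 1.27). The second IL-10 receptor chain, Il10rb, which other class II receptors share, was at 2.61, 2.26, 3.35 and 2.60 RPKM (14.9% of its exon bases are shared with the predicted gene Gm21970) and did not pass for genotype in limma (adjusted p = 0.339). The ratio of Il10rb to Il10ra was 4.26 (3.00 to 6.19) and 4.765 (3.25 to 7.19) in WT and 0.554 (0.468 to 0.656) and 1.28 (1.01 to 1.61) with the KO label.

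Interferon receptor genes lie with Il10rb in a cluster on chromosome 16 (Ifnar2, Il10rb, Ifnar1, Ifngr2, from 91372783 to 91565623). Ifngr2, the signalling chain of the interferon-γ receptor, was at 11.02 and 14.1 RPKM in WT and at 17.7 and 21.0 RPKM with the KO label, a rise by the limma test (log2 0.59 ± 0.12 SE, adjusted p = 0.0392). Its ligand-binding partner Ifngr1, on chromosome 10, was at 7.71 and 11.97 RPKM in WT and at 11.1 and 12.6 RPKM with the KO label (adjusted p = 0.259 in limma). The WT library at 37 °C was thus the lowest of the 4 for both chains. The type I interferon receptor genes did not pass for genotype: Ifnar1 was at 5.91, 5.76, 8.89 and 7.95 RPKM (limma adjusted p = 0.0689), and Ifnar2 at 8.21, 8.87, 9.74 and 8.89 RPKM (0.576).

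Of the 8 tested members in the group of common γ chain and related receptors (Crlf2, a TSLP receptor chain, belongs to the related ones), Il21r rose with the KO label. That 1 of 8 stands beside 8.57% of all rows that rose and 4.70% that fell. Il21r encodes the private chain of the receptor for IL-21, a cytokine Th17 cells make themselves, and was at 39.3 and 54.2 RPKM in WT and at 93.6 and 88.6 RPKM with the KO label. Both KO-labelled libraries lay above both WT libraries, with ratios of 2.38 (2.27 to 2.499) at 37 °C and 1.64 (1.57 to 1.71) at 39.5 °C (log2 0.965 ± 0.16 SE, limma adjusted p = 0.0253). Its neighbour on chromosome 7, Il4ra, which lies 24.0 kb away, was at 84.6, 84.0, 127 and 101 RPKM, with ratios of 1.497 (1.46 to 1.54) and 1.20 (1.17 to 1.24), and did not pass in limma (adjusted p = 0.0886).

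Il7r, the IL-7 receptor chain kept by naive and memory T cells, was at 1.625 RPKM in WT at 37 °C, 3.89 RPKM in WT at 39.5 °C, and 7.96 and 4.85 RPKM with the KO label (138, 350, 655 and 416 reads). Its temperature ratio was 2.39 (1.959 to 2.94) in WT and 0.609 (0.537 to 0.689) with the KO label, and its genotype ratio 4.90 (4.07 to 5.93) at 37 °C and 1.247 (1.08 to 1.44) at 39.5 °C. The libraries thus lay closest together at 39.5 °C, and limma, for which such dependence is error, made no call for genotype (log2 1.015 ± 0.35 SE, adjusted p = 0.107).

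The IL-2 receptor genes stayed within 2-fold in each comparison. Il2ra had a temperature ratio of 0.978 (0.963 to 0.993) in WT and 0.658 (0.648 to 0.668) with the KO label. Il2rb had 1.045 (1.02 to 1.07) and 0.858 (0.842 to 0.874), and Il2rg 0.881 (0.855 to 0.909) and 0.907 (0.882 to 0.932). None of these 3 passed in limma for temperature or genotype. At an unadjusted p under 0.05 for genotype, Il2rb and Il2rg were among 12 of 24 members on the high side (against 19.0% of rows) and Il2ra was not. The 12 include Il10ra and Il17re, which reached the minimum only through the KO-labelled libraries and are no support. Crlf2, the receptor chain for TSLP, was at 37.9, 23.8, 30.8 and 25.7 RPKM, lower at 39.5 °C in both genotypes (ratios 0.626, 0.568 to 0.691, and 0.835, 0.754 to 0.925; limma adjusted p = 0.273). Il15ra, which presents IL-15, was between 1.05 and 1.83 RPKM. Il13ra1 had at most 7 reads in a library. Csf2rb, the shared β chain of the GM-CSF receptor, had 3, 8, 2 and 0 reads; the count of 0 allows up to 3 reads in that library, and no fold is given.

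The receptor for the inducing cytokine, IL-6, consists of the private chain from Il6ra and gp130 from Il6st. Il6st was at 4.43 and 5.14 RPKM in WT and at 2.61 and 2.85 RPKM with the KO label, below WT at both temperatures (ratios 0.589, 0.527 to 0.657, and 0.554, 0.5005 to 0.6135; log2 −0.63 ± 0.13 SE, limma adjusted p = 0.0391). Il6ra was at 5.215, 6.87, 7.97 and 7.79 RPKM and did not pass for genotype in limma (log2 0.34 ± 0.15 SE, adjusted p = 0.165). The ratio of Il6ra to Il6st was accordingly 1.18 (1.07 to 1.29) and 1.34 (1.23 to 1.46) in WT, and 3.05 (2.75 to 3.39) and 2.73 (2.48 to 3.02) with the KO label.

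Il27ra, the private chain of the IL-27 receptor, which also pairs with gp130, lay on the other side. It was at 37.7 and 29.3 RPKM in WT and at 55.2 and 52.6 RPKM with the KO label (log2 0.68 ± 0.13 SE, limma adjusted p = 0.034). Its level was between 5.71 and 21.15 times that of Il6st. Il11ra1, whose reads are uncertain because a near-identical copy exists, had 10 to 31 reads.

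The IL-17 receptor chains were low or moderate. Il17ra, the common chain, was at 8.93, 9.87, 13.5 and 12.2 RPKM and did not pass for genotype in limma (adjusted p = 0.0989). Il17re, which pairs with it to bind IL-17C, was at 0.7765 and 0.777 RPKM in WT and at 1.62 and 2.03 RPKM with the KO label (ratios 2.09, 1.60 to 2.75, and 2.61, 2.03 to 3.38); it too reached the minimum only through the KO-labelled libraries, so no test is used. Il17rc, the partner needed for IL-17A and IL-17F, had 7 to 12 reads in each library, so differences within it were not detectable at this depth.

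**Figure D5:**
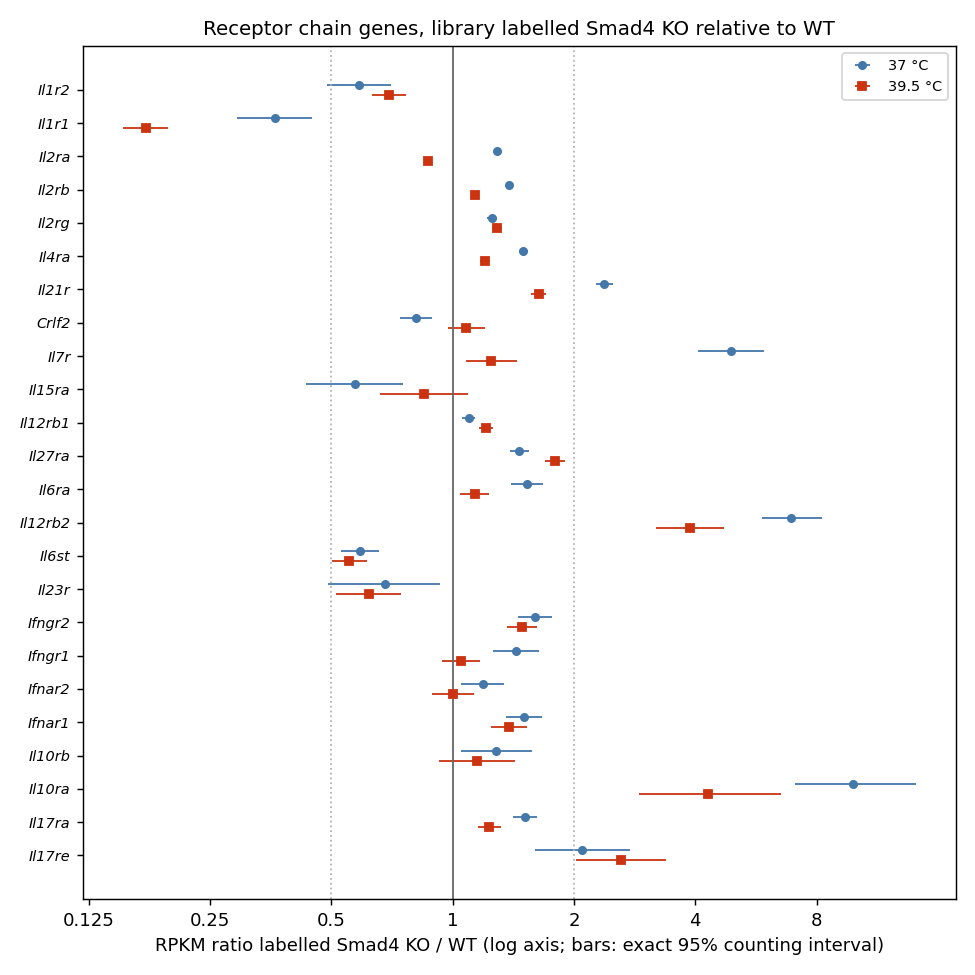
KO-labelled to WT RPKM ratio (log axis) for the 24 members tested, at 37 °C (circles) and 39.5 °C (squares), with exact 95% counting intervals; dotted lines mark a ratio of 0.5 and 2. Il10ra, Il12rb2 and Il17re lie right of 2 at both temperatures, Il7r and Il21r at 37 °C, and Il1r1 lies left of 0.5 at both.

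The temperature ratios were then compared between the genotypes, as the difference of log2 ratios (KO label minus WT), for which 1 library per combination leaves no test. Il1r1 (−1.20), Il7r (−1.51) and Il10ra (−1.09) were at least 2-fold lower in this difference (3 of 24, against 1.55% of rows) and 0 of 24 were at least 2-fold higher (against 0.671%). Il10ra reached the minimum only through the KO-labelled libraries, so its place in this count is no support. The median over the members was −0.22, with 17 below 0 and 7 above, and over all rows it was 0.00 to 2 decimals, with 49.6% of rows above 0.

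Other genes of the same pathways were taken from lists of ligands, further receptor chains, signal mediators and signal inhibitors. In the limma test for genotype, 8.57% of all rows rose and 4.70% fell, and the counts below stand beside those shares. Of 7 genes tested on the list of further receptor chains, which also holds genes of soluble proteins (Ebi3 and Il18bp), 4 rose with the KO label and 0 fell. Sigirr, an inhibitory relative of the IL-1 receptor, was at 36.2 and 31.1 RPKM in WT and at 75.4 and 68.3 RPKM with the label (log2 1.07 ± 0.12 SE, adjusted p = 0.0148). The others were Il3ra, Ebi3 and Epor, the last with a WT level (1.16 and 0.807 RPKM) that by itself would not have reached the minimum. Of 10 ligand genes tested, 1 rose and 4 fell with genotype. Il2, whose receptor genes lead the members, fell, from 19.4 and 21.6 RPKM in WT to 5.75 and 7.64 RPKM with the KO label (log2 −1.49 ± 0.13 SE, limma adjusted p = 0.0104). Il9, Il17a and Il17f fell as well. The 1 ligand gene on the high side was Il4, with 5 and 2 reads in WT and 78 and 31 reads with the KO label; only the latter libraries brought it to the minimum level, so that call is no support. Il9, whose receptor gene had no row, was at 10.55 and 42.8 RPKM in WT and at 1.59 and 9.22 RPKM with the KO label, and was the 1 ligand gene that rose with temperature (log2 1.95 ± 0.12 SE, limma adjusted p = 0.0406). 

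Of 19 signal mediators tested, 3 rose with the KO label and 0 fell, and of 16 signal inhibitors 3 rose and 0 fell, which is read only beside the 8.57% of all rows that rose. The mediators were Irf9, Irak2 and Jak3, the kinase that binds the common γ chain. Jak3 was at 56.7, 52.4, 105 and 93.5 RPKM (log2 0.85 ± 0.12 SE, limma adjusted p = 0.0171). The inhibitors were cytokine-induced feedback genes. Socs3, which blocks gp130 signalling, was at 5.37, 5.84, 16.4 and 10.2 RPKM (log2 1.08 ± 0.20 SE, limma adjusted p = 0.031). Socs1 and Cish, which restrain interferon-γ and IL-2 signalling, also passed. No mediator, inhibitor or gene on the list of further receptor chains passed for temperature in limma.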

How the data were processed

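RNA-seq of 4 libraries was analysed, grouped by the genotype and temperature in the titles. The authors deposited 1 table per library with values in RPKM, per the labels. The submitters' processing notes name Bowtie2, featureCounts of Subread, edgeR, Trim Galore 0.4.4 and the build mm10, with annotation and strand use not given in the sources used here.

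A mean of 1 RPKM or more over the libraries was required, which left 13715 rows, and log2(RPKM + 1) was taken. Pairs of libraries were compared by ratio and a 2-fold rule. Shared changes were tested with limma 3.58.1 (R 4.3.3; additive model, empirical Bayes with a trend, median prior degrees of freedom 4.475, adjusted p under 0.05, two-sided). Nothing says whether the libraries came from separate mice or days, so these p-values set a change against the genotype dependence and a trend over all genes, not against a spread between animals. On simulated data the fit recovered known changes but also called unchanged genes above its nominal rate, so adjusted p-values may be too small. The simulated temperature changes did not depend on genotype, and that dependence is the error here. The simulation therefore cannot show how far the adjusted p-values of these data are off.

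Whole reads were recovered as RPKM × exon length × library size: of 13143 rows matching 1 gene in GENCODE vM21, 12053 (91.7%) were whole at its exon length within 0.01 reads, and with each row's own length 99.99% of rows were whole within 0.003 reads. The library sizes behind the RPKM were 0.955 to 1.06 times the recovered reads. Ratios have exact Clopper-Pearson 95% intervals from these reads; since PCR copies cannot be told from separate molecules here, they and the 3-read limit for a count of 0 cover counting error only.

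Members and lists were chosen with earlier results of these data known. Members at or past 2-fold in a pair or past the limma threshold, and the chains of the IL-6, IL-23, IL-1 and IL-21 receptors, were given per library. Alternatives were another pseudocount (0.1), no minimum or a mean of 5 RPKM, upper quartile scaling, no variance trend, and limma-voom on recovered reads. The edgeR quasi-likelihood test, listed for tables of counts, was not run, because the tables hold RPKM and no deposited counts.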

Additional observations from a re-analysis of the deposited data

Results flagged for a closer look

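For 5 members the counting intervals of the same contrast lay on opposite sides of 1 in the 2 genotypes or at the 2 temperatures; the differences were not tested, as each ratio rests on 1 library per group. Il7r had a temperature ratio of 2.393 (1.959 to 2.94) in WT and 0.6085 (0.537 to 0.689) in the KO-labelled libraries, the widest such gap. Il21r had 1.377 (1.31 to 1.45) and 0.946 (0.911 to 0.982). The temperature ratios of Il2rb were 1.045 (1.02 to 1.07) in WT and 0.8576 (0.842 to 0.874) with the KO label, and those of Il17ra were 1.105 (1.03 to 1.19) and 0.9027 (0.848 to 0.961). Il2ra had a KO-labelled to WT ratio of 1.288 (1.27 to 1.31) at 37 °C and 0.8666 (0.853 to 0.881) at 39.5 °C. A counting interval does not hold the spread between cultures, which these libraries cannot show.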

How the results depend on the processing

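No paired analysis was possible because each group had 1 library, and for the same reason no replicate could be left out. No call of a member changed direction under any alternative run. At the 2-fold rule, the rows higher and lower for temperature in WT, temperature with the KO label, genotype at 37 °C, genotype at 39.5 °C and the difference of temperature ratios numbered 200 and 72, 103 and 125, 645 and 156, 315 and 144, 92 and 212. With a pseudocount of 0.1 they were 391 and 165, 221 and 237, 900 and 320, 549 and 317, 212 and 416, and with a minimum mean of 5 RPKM, which tests fewer rows, 99 and 45, 50 and 54, 417 and 95, 204 and 69, 37 and 92. With the pseudocount of 0.1, 1 member in place of 0 was at least 2-fold lower for genotype at 37 °C. With the minimum of 5 RPKM, which left 17 members, the members called were 1 higher and 1 lower for temperature with the KO label, 2 higher for genotype at 37 °C, 1 higher at 39.5 °C, and 1 lower in the difference. For the shared temperature change, 2 rows rose and 1 fell in limma. These counts were 19 and 11 with the pseudocount of 0.1, 178 and 112 with the minimum of 5 RPKM, 225 and 127 with limma-voom, and 0 and 0 with no minimum and with no trend. Members that rose with temperature numbered 1, 2 and 3 in the first 3 of these, against 0 in the main setting. For genotype, 1176 rows rose and 644 fell. With no minimum 0 rose and 0 fell, members included, and with limma-voom 1626 rose and 1288 fell. The causes were not tested. Upper quartile scaling moved the median of all rows by at most 0.06 on the log2 scale and kept each count of members within 1.5 times. Members with at most 55 reads in each library (Il18r1, Il18rap, Il1rn, Il11ra1, Il13ra1, Il17rc and Csf2rb), and Il10ra in WT, are limited by depth.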
